A study of Mus musculus with 21 samples.

Results

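The regions described here were stretches of open chromatin that lay at the boundary of a protein-coding gene and carried an ATAC-seq peak in every library of the experiment. Peaks of the 8 ATAC lists were merged where they overlapped by 1 bp or more, which gave 51264 regions. Of these, 13096 had a peak in all 8 lists and are called always-open, and 8413 of the always-open regions had a protein-coding gene boundary (mm10, RefSeq) inside them or within 1 kb. These 8413 are the gene-boundary regions. The other 4683 always-open regions lay farther from any such boundary, and a further 5280 regions lay at a boundary but had a peak in 1 to 7 lists. The regions were chosen by the presence of a peak in the 8 ATAC lists, so their openness is a description and was not tested.

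A single mouse embryonic stem cell line was used, A2lox-Sox7-Myc, made from E14Tg2a. Doxycycline switches on its Myc-tagged Sox7 transgene, which uninduced cells carried too. The cells formed embryoid bodies, floating clusters that give rise to mesoderm, and were harvested on day 4. Induced cells had 1 µg/ml doxycycline for 24 h and uninduced cells had none. ATAC-seq was done on sorted EPC (PDGFRα−FLK1+, endothelial progenitors) and CPC (PDGFRα+FLK1+, cardiac progenitors), each with 2 induced and 2 uninduced libraries. Anti-Myc ChIP-seq for Sox7 was done on unsorted cells, with 4 induced and 4 uninduced libraries and 1 input library. The input library was uninduced, and the induced libraries had no input of their own. Separate cultures are not stated for the replicates, and the p-values therefore rest on a spread that may be technical.

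ATAC-seq marks DNA that a transposase can reach, and the most regular such places in a genome are the starts of genes that most cells use. There, general factors, a paused or starting RNA polymerase and remodelling enzymes keep a stretch free of nucleosomes. In mammals most of these starts lie in CpG islands, GC-rich stretches that keep CpG pairs lost elsewhere, and factors that bind the GC box, the CCAAT box, the ETS site or the NRF1 site recur there. Starts of genes used in 1 tissue more often lack an island and may carry a TATA box. Sox7 belongs to the SOXF group of transcription factors, which act in blood vessel and endoderm cells and bind short AT-rich motifs of the type ACAATG.

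Sequences of 8 promoters show the range within the gene-boundary regions. Each runs from 250 bases before to 50 bases after the annotated gene start, 5′ to 3′ on the gene's strand, and was taken from RefSeq on GRCm38.p6. Capitals mark matches of the named motif on either strand. Dcbld2, whose region had the third highest place by score, stands for the CpG-rich type with GC boxes (GGGCGG) and CCAAT boxes (CCAAT), at chr16:58408285-58408584, + strand.
Dcbld2: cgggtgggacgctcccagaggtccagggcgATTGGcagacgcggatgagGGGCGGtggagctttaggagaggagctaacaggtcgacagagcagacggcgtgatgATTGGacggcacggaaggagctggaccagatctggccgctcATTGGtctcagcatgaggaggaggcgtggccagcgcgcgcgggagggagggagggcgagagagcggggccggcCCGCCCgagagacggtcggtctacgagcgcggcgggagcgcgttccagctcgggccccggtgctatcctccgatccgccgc
Kdr encodes FLK1, the receptor used in both sorts, and has GC boxes in capitals at chr5:75978406-75978705, − strand.
Kdr: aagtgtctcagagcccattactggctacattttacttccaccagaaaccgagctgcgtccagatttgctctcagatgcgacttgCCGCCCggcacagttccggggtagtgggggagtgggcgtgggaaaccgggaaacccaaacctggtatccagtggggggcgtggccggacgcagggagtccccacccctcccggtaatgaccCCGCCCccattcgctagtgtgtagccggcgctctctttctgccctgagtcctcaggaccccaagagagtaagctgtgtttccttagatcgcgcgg
Tal1 and F2rl3 had high places in EPC and low places in CPC libraries, and the GATA motif (AGATAA) is in capitals. Tal1 is at chr4:115056176-115056475 and F2rl3 at chr8:72761409-72761708, both on the + strand, and the F2rl3 sequence has 0 CpG pairs.
Tal1: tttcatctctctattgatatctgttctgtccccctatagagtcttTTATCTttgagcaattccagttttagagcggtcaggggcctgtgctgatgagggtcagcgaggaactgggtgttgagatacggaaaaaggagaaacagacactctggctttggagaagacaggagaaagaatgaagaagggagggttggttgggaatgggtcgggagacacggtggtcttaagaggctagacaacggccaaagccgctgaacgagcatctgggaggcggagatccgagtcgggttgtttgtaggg
F2rl3: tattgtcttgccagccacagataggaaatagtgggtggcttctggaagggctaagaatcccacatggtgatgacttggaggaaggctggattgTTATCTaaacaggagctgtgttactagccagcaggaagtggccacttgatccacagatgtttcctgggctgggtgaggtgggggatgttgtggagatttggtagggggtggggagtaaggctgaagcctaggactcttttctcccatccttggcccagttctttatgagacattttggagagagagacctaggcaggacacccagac
Svep1 had the opposite order and carries a TATA box (TATAAA), at chr4:58206547-58206846, − strand.
Svep1: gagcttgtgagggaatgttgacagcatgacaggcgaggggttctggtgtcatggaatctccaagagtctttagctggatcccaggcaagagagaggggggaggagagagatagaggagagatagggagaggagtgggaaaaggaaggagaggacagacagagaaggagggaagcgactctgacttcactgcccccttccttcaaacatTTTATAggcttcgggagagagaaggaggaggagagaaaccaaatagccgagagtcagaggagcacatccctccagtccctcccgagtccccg
Vangl2 and Zscan2 lay under induced Sox7 ChIP sites, and the SOX motif (ACAATG) is in capitals, at chr1:172027246-172027545 on the − strand and chr7:80860681-80860980 on the + strand.
Vangl2: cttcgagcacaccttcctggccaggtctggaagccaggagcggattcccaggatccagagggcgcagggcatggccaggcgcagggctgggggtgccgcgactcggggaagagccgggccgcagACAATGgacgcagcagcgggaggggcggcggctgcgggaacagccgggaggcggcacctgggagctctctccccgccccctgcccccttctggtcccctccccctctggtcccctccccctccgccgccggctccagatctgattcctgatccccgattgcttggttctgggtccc
Zscan2: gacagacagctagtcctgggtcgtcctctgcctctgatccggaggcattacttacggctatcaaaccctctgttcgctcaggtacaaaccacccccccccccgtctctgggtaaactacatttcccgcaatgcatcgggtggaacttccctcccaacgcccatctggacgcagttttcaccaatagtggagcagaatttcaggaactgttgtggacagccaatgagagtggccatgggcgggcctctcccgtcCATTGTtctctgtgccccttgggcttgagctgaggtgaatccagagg
H1f5, a linker histone gene, had the most negative induced minus uninduced difference in place, and has CCAAT boxes and a TATA box in capitals, at chr13:21780576-21780875, − strand.
H1f5: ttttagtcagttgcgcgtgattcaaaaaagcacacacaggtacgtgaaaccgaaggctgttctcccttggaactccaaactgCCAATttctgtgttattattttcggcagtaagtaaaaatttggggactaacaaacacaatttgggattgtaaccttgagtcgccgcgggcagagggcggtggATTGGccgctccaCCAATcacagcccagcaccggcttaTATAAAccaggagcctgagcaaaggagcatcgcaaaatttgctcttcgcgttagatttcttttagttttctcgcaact

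The gene-boundary regions served 9577 of the 21883 protein-coding genes of the table, or 43.8%. A region of any list lay within 1 kb of 13673 genes (62.5%). As a check that the gene table fits the build of the peaks, 64.2% of the 13096 always-open regions lay at a boundary, against 10.7% after a shift of all genes by 100 kb. For the 38168 regions found in 1 to 7 lists, these shares were 13.8% and 6.35%. A single gene was within reach of 6800 of the 8413 regions, 2 genes of 1547, and 3 genes of 63. The X chromosome had a region at 32.2% of its 966 genes, and chromosome Y at 1 of 256 genes.

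Most of the regions lay at gene starts. Strand was known for 17491 of the genes, and 6931 of the gene-boundary regions touched a boundary that could be read as a start or an end. Of these, 6196 (89.4%) lay at a start, 567 (8.18%) at a start and an end, and 168 (2.42%) at an end alone. Among the boundary regions with a peak in 1 to 7 lists, 931 of 4063 (22.9%) lay at an end alone. Among the 17491 genes of known strand, 7558 (43.2%) had an always-open region within 1 kb of their start.

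Of the 6763 gene-boundary regions at a start of known strand, 93.7% covered the start itself. The median region reached 663 bp before the start and 866 bp after it, with a median centre 85 bp inside the transcribed side. Each library taken alone gave the same picture, with a peak over the start in 91.3% and 91.9% of regions in induced EPC, 91.6% and 89.8% in uninduced EPC, 90.8% and 90.7% in induced CPC, and 91.3% and 88.8% in uninduced CPC. In 521 of these regions (7.70%), the starts of 2 genes pointed away from each other, with a median gap of 114 bp. Such head-to-head pairs made up 85 of 3132 start regions (2.71%) with a peak in 1 to 7 lists.

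**Figure D1:**
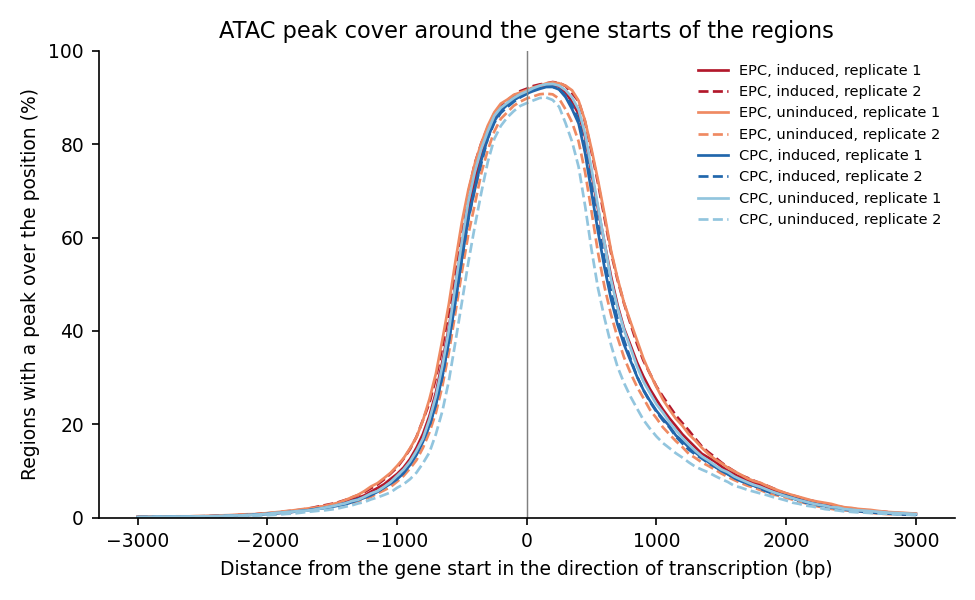
Share of the 6763 start regions with an ATAC peak over each position, by distance from the gene start (bp, positive in the direction of transcription), 1 line for each of the 8 libraries. The share is highest 150 to 200 bp after the start in all 8 libraries, and the second uninduced library of each cell type lies lowest.

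The gene-boundary regions had a median width of 1568 bp, with quartiles of 1308 and 1951 bp. The always-open regions away from boundaries had a median of 1312 bp, and boundary regions in 1 to 7 lists one of 962.5 bp. A merged region is as wide as the union of its peaks, so regions with peaks in more lists can be wider for that reason alone. Only 33 gene-boundary regions were wider than 5 kb. The widest spanned 78617 bp at Sfi1, a centriole protein gene, at chr11:3121846-3200462, and the next 38716 bp at the end of Mid1, a ubiquitin ligase gene, at chrX:169984005-170022720. The other 8 of the 10 widest were 2 regions at C130026I21Rik and 1 each at A530032D15Rik and Sp140 on chromosome 1, and 2 at Gm15319 and 1 each at Gm21119 and Gm40469 on chromosome 8, between 11116 and 23096 bp. Regions wider than 5 kb overlapped an input peak in 4 of 33 cases (12.1%), against 23 of 8380 narrower ones (0.274%). How reads with several placements were treated is not given in the sources used here, so the wide regions are uncertain.

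Peak scores gave an order of the regions within each library. A score is the authors' value for a peak, minus 10 times the log10 of its p-value, and it depends on depth, which is unknown. Scores were therefore turned into a place for each library, the percentile of a region among the 13096 always-open regions, where 100 is the highest score. The gene-boundary regions had a median place between 55.3 and 57.5 in the 8 libraries. The always-open regions away from boundaries had medians between 34.8 and 40.5. In sorted populations, a higher place can come from more cells with an open site or from a more open site per cell, and these cannot be told apart.

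At the top of the order, many regions were tied at a score of 3100, and some had higher scores, up to 3233.06. Between 28 and 310 gene-boundary regions per library had 3100 or more. Many of their places were therefore tied. The 10 highest mean places, from 98.95 to 99.06, were at Cep170 (with Sdccag8), Gm51425, Dcbld2, the end of Mid1, Cdca3 (with Usp5), Kcnt2, Gm20783, the end of Lars2, Aasdhppt (with Kbtbd3) and Evi5l. Cep170 encodes a centrosome protein, Cdca3 a protein of mitotic entry and Kcnt2 a potassium channel. The Mid1 and Lars2 ends overlapped input peaks and had a peak in all 8 ChIP lists, and the other 8 regions had neither.

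At the bottom of the order, the 5 lowest mean places, from 1.57 to 2.79, were at Gm12695, Chic1, Gpx3, Akr1b10 and Pmpcb, with scores between 50.28 and 128.02. Just outside the rule were 1043 boundary regions with a peak in 7 lists. Of these, 449 lacked a peak in uninduced CPC replicate 2 and 245 in uninduced EPC replicate 2, the shortest 2 lists, with 23068 and 23694 peaks against 27540 to 30732 in the others. The 5 such regions with the highest places in their lists were at Cdc42ep3, Abcb9, Catsperd, Dennd5b and Ypel4, and all 5 lacked uninduced CPC replicate 2. Their scores ran from 153.78 to 1084.63, above the 5 lowest regions inside the rule. Pdgfra, the other gene of the sort, was not among the regions: a region at its start had a peak in all 4 CPC libraries and in 1 EPC library, induced replicate 1, and a neighbouring region at the start had a peak in 2 lists. The endogenous Sox7 gene had a boundary region with a peak in 7 lists, all but uninduced CPC replicate 1.

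Wider regions stood higher in the order. The median width was 1251 bp in the lowest of 4 equal groups of the regions by mean place, 1490 and 1632 bp in the next groups and 1909 bp in the highest. Regions at an end alone had a median place of 32.4, against 56.2 for regions at a start alone. Head-to-head starts had a median place of 69.4, against 55.3 for the other start regions.

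In lists of genes for the basic work of the cell, most genes had a boundary region. Gene lists were compared with the 43.8% of all protein-coding genes that had an always-open boundary region. Among genes that copy DNA and drive the cell cycle, 44 of 48 (91.7%) had one, led by Cdk2, a cell cycle kinase, with a mean place of 98.8, Mad2l1 of the spindle checkpoint (98.4) and Pcna, the sliding clamp of DNA polymerase (92.9). The exceptions were Aurkb, Bub1, Ccnd3 and Rfc1. Aminoacyl-tRNA synthetases, which load tRNAs, had a region in 33 of 35 cases, and the 2 without were Aars2 and Gars. Heat shock and chaperonin genes had 23 of 25, translation factors 30 of 35, DNA repair genes 26 of 30, splicing genes 30 of 36 and glycolysis genes 16 of 20. For the parts of large complexes, the counts were 64 of 81 cytosolic ribosomal protein genes, 53 of 78 mitochondrial ribosomal protein genes, 29 of 39 proteasome genes and 57 of 81 genes of the respiratory chain and ATP synthase.

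Several signalling and regulatory families belonged to the same class. The BMP and TGF-β list had a region at 21 of 22 genes, among them the receptors Acvr2b (76.1) and Tgfbr1 (72.2) and the mediators Smad7 (86.7), Smad2 (78.5) and Smad4 (63.4). Bmp4, a mesoderm-inducing ligand, was the exception and had a region in some lists. Of the Notch list, 16 of 22 genes had a region, with Hey2 (93.2), Numb (88.2), Hey1 (86.4) and Jag1 (85.2) highest. Of the Wnt list, 15 of 23 had a region, with the kinase gene Gsk3b (98.2) and the receptor gene Fzd4 (95.2) highest. Zinc finger genes named Zfp had one in 281 of 394 cases (71.3%).

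Lineage genes were fewer. Of the endothelial list, 13 of 29 genes (44.8%) had a region, close to the 43.8% of all genes, with S1pr1, the sphingosine-phosphate receptor, highest at 95.5. Of the cardiac list, 7 of 26 (26.9%) had a region: Tbx20 (89.2), Isl1 (88.9), Fgf10 (83.0), Gata6 (58.2), Hand1 (46.2), Hand2 (42.6) and Ryr2 (36.6). Contractile and late cardiac genes such as Myh6, Actc1 and Nppa had no region in any list. Of the blood list, 4 of 21 (19.0%) had a region, Tal1 (57.6), Nfe2 (53.8), Lyl1 (34.1) and Kit (20.8). Of the early mesoderm list, 2 of 19 had a region, Snai1 (45.9) and Foxc1 (29.5), while T, Eomes and Mixl1 had regions in 1 to 7 lists. Of the pluripotency list, 6 of 22 had a region, and Pou5f1 had none in any list within 1 kb of its boundaries.

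Few genes of unrelated tissues were among them. A region was found at 4 of 1106 olfactory receptor genes (0.362%), 2 of 353 vomeronasal receptor genes, 2 of 105 keratin genes, 1 of 20 lymphocyte genes (Cd4), 1 of 20 liver and gut enzyme genes (Fah) and 0 of 70 defensin genes. Of 39 Hox genes, which set position along the body axis, 1 had an always-open region (Hoxc13), and 13 had a boundary region in any list. The remaining lists held 43 of 52 general transcription and chromatin genes, 18 of 21 housekeeping genes, 165 of 364 Slc transporter genes, 19 of 44 Fox genes, 6 of 19 Sox genes, 11 of 93 cytochrome P450 genes, 8 of 23 neural genes, 7 of 23 endoderm genes and 4 of 10 smooth muscle genes. The lists were drawn up with earlier results of these data known, and the counts are descriptions without a test.

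**Figure D2:**
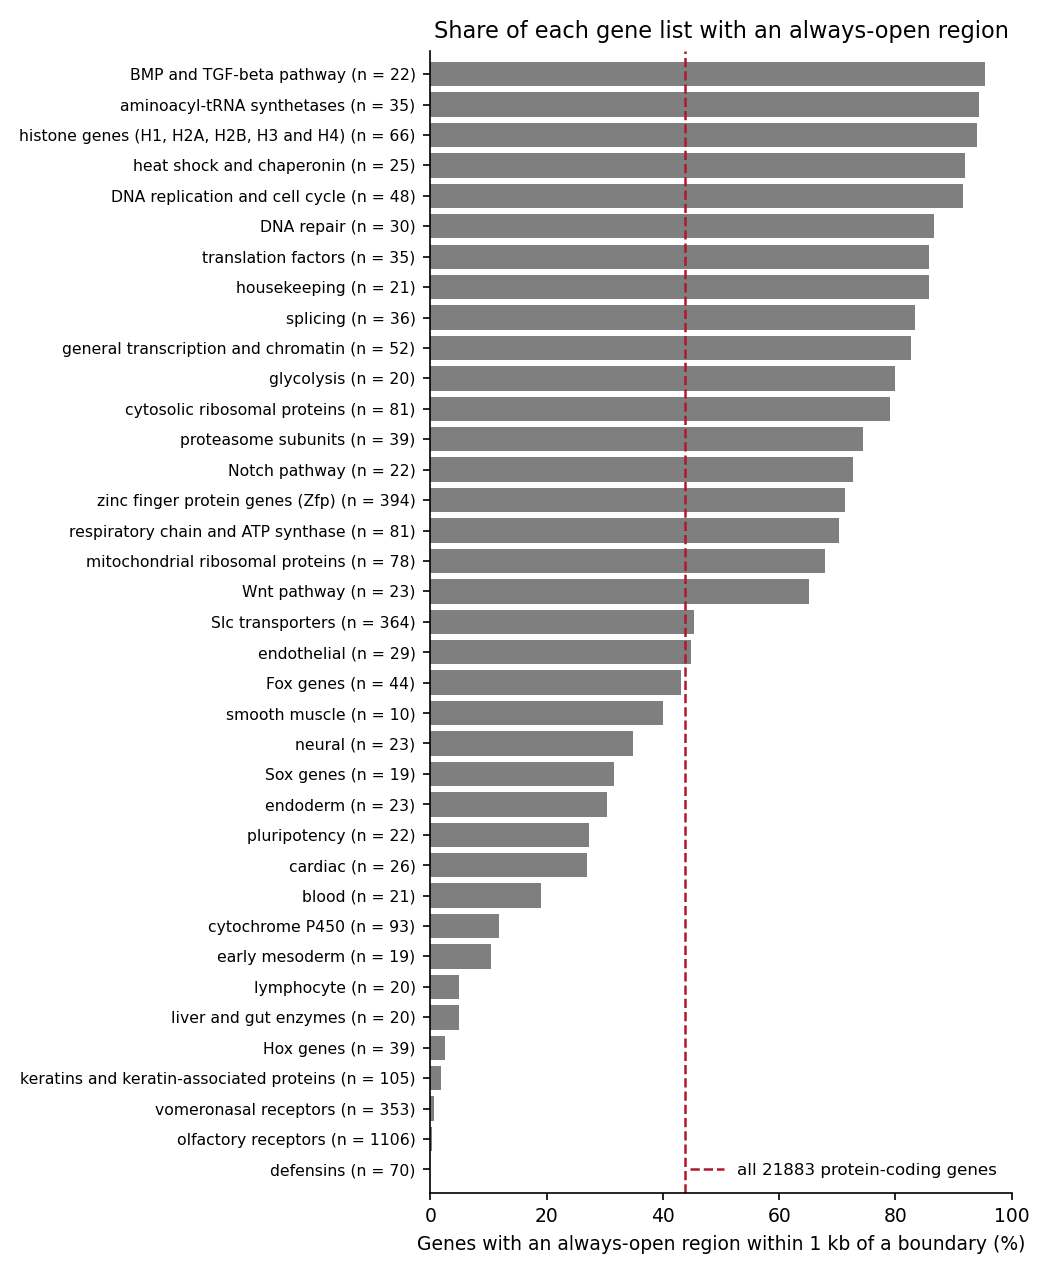
Share of the genes of each of the 37 lists that had an always-open region within 1 kb of a boundary (%), with the number of genes in brackets. The dashed line is the share over all 21883 protein-coding genes (43.8%); 18 lists from Wnt pathway genes upward lie well to its right, and receptor, keratin and defensin genes lie near 0.

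The promoters of the regions were rich in CpG. Of the 21262 promoter sequences, 8305 of 7261 genes overlapped a gene-boundary region. Their median GC content was 62.3%, and CpG pairs occurred at a median of 0.796 of the number that the base content would give (the observed over expected ratio). By the criterion of a GC content of at least 50% with a ratio of at least 0.6, 76.8% were island-like. The share was 58.1% of the 3345 promoters with a region in 1 to 7 lists, 8.20% of the 8748 with no ATAC region, and 45.1% of all promoters. Another 1925 always-open promoters (F2rl3 and Svep1 above are examples) did not meet the criterion.

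Motifs were counted on both strands in these windows of 300 bases, as matches of letters and not as bound sites. The shares were not corrected for base content. Median GC content was 62.3% in always-open and 56.3% in all promoters, so GC-rich and AT-rich letters can differ in share for that reason alone. The GC box GGGCGG occurred in 70.9% of always-open promoters (46.2% of all promoters), CCAAT in 42.8% (38.2%), the ETS letters CCGGAAG in 20.3% (11.6%) and the NRF1 site in 2.26% (1.33%). The CRE letters TGACGTCA occurred in 3.82% (2.23%) and TGACG, which these contain, in 34.6% (23.6%). The E-box CACGTG was found in 10.5% (7.84%), AAGATGG (YY1) in 7.21% (6.24%), ACTACAA (part of the ZNF143 site) in 5.01% (3.60%) and CTTTCC (part of the TCT initiator of translation genes) in 25.8% (25.9%). The TATA box TATAAA was less frequent in always-open promoters, with 5.53% against 12.6% of all promoters. The SOX letters ACAATG occurred in 6.06% (11.0% of all promoters). For the GATA factor letters AGATAA the share was 4.96% (9.65%). The MEF2 site, which holds the TATA box letters on its other strand, occurred in 0.0843% (0.146%). The CCAAT share moved with the score: it was 32.0%, 40.3%, 46.2% and 52.7% from the lowest to the highest of 4 equal groups of the always-open promoters by place. The GC box, with 67.0%, 71.7%, 72.5% and 72.4%, and the ETS letters, with 21.8%, 19.2%, 21.1% and 19.3%, did not move in this way.

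The order of the gene-boundary regions was much the same in both cell types. Among them, the rank correlation (Spearman) of places was 0.903 to 0.941 between replicates of a group, 0.886 to 0.932 between treatments of a cell type, and 0.858 to 0.906 between EPC and CPC libraries. For the always-open regions away from boundaries, these ranges were 0.852 to 0.905, 0.765 to 0.835 and 0.593 to 0.729. The correlations run over regions that share each library and its depth, and are descriptions. The mean place in EPC minus that in CPC was within 10 points for 76.9% of gene-boundary regions and for 58.0% of those away from boundaries.

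A minority of regions stood apart between cell types, with no overlap between the 4 EPC and the 4 CPC places. EPC places were all above CPC places for 503 gene-boundary regions (5.98%), and all below for 397 (4.72%). Over all always-open regions these shares were 7.14% and 7.57%, and away from boundaries 9.22% and 12.7%. When the places were taken among the gene-boundary regions alone, 415 regions had EPC above CPC and 457 had EPC below, so which direction had more regions depended on the ranking. No test was made on ATAC values, since these chose the regions.

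The regions that stood highest in EPC relative to CPC belonged in part to genes of vessel and blood cells. At Clec1a, a lectin-like receptor gene with Clec9a and Clec12b beside it, the places were 95.3 and 91.2 in induced EPC, 94.4 and 93.6 in uninduced EPC, 21.3 and 31.4 in induced CPC and 12.0 and 4.5 in uninduced CPC. This difference of 76.3 points was the largest, and treatment moved the places far less than cell type. F2rl3, which encodes the thrombin receptor PAR4, had 71.4 to 78.6 in the 4 EPC libraries and 1.4 to 7.6 in the 4 CPC libraries. Tal1, a factor needed for blood formation, had 83.8 to 92.7 in EPC and 23.6 to 31.5 in CPC libraries. Nfe2, a factor of red cell and platelet precursors, had 74.0 to 86.1 in EPC and 6.9 to 41.8 in CPC libraries. At the apelin receptor gene Aplnr the range was 84.2 to 92.5 in EPC and 20.6 to 30.1 in CPC libraries. The other 5 of the 10 largest were Fam110c, Ctla2b, Art4, the end of Rbm38 and the shared ends of Uba7 and Inka1, with differences of 66.9, 66.8, 66.1, 61.4 and 57.3 points. In all 10 the lowest EPC place lay above the highest CPC place, as the rule for naming them required.

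Of the 4 blood genes with a region, Tal1, Nfe2 and Lyl1 stood apart with EPC above CPC and 0 with EPC below, and of the 13 endothelial genes, Aplnr, Etv2, Pecam1 and Sox17 stood apart with EPC above and 0 with EPC below, while the other 9 did not stand apart. Over all gene-boundary regions the share with EPC above CPC was 5.98%, and over all always-open regions 7.14%. A gene counted as apart if any of its regions was. Etv2, a master factor of endothelial and blood progenitors, had a mean difference of 34.3 points, and Sox17, of the same SOXF group as Sox7, one of 48.9 points. Of the 7 cardiac genes, 0 stood apart in either direction, and their median EPC minus CPC difference was −4.25 points. Hand1, at −26.5 points, and Gata6, at −22.8 points, lay well below this median. They were picked from the genes below it, and their EPC and CPC places overlapped, as did those of the other cardiac genes. Kdr itself lay below the median place of the gene-boundary regions in all libraries. Its places were 24.8 and 27.8 in induced EPC, 44.3 and 17.1 in uninduced EPC, 27.1 and 7.4 in induced CPC and 0.5 and 12.4 in uninduced CPC. The ranges of Kdr overlapped between the cell types, and both sorts selected for its product.

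In the other direction stood regions with lower places in EPC than in CPC libraries. Akap12, a scaffold for protein kinase A, had 19.1 and 27.1 in induced EPC, 11.9 and 0.8 in uninduced EPC, 62.8 and 63.7 in induced CPC and 77.7 and 79.3 in uninduced CPC. At the end of Cdx2, a caudal-type homeobox gene of posterior mesoderm and gut, the places were 10.8 to 19.3 in EPC and 48.5 to 86.3 in CPC libraries. Kcna5, a potassium channel gene, had 1.6 to 8.3 in EPC and 37.3 to 74.4 in CPC libraries. Svep1, a matrix protein gene, had 0.5 to 11.6 in EPC and 52.5 to 57.8 in CPC libraries. The other 6 were Crispld1, the end of Cyp2s1, Olfr576, Gbp9, the end of Prdm9 and Sulf1, with differences of −52.4, −50.5, −48.0, −46.3, −46.0 and −45.1 points. Of the promoters with EPC above CPC, 379 of 485 (78.1%) were island-like, and of those with EPC below CPC, 193 of 329 (58.7%), where 76.8% of all always-open promoters were. The ETS letters CCGGAAG occurred in 21.6% of promoters with EPC above CPC and 11.2% of those with EPC below, against 20.3% of all always-open promoters. ETS was not alone in this: shares were 8.25% and 3.34% for YY1, 3.30% and 1.52% for NRF1, and 8.45% and 4.26% for SOX letters. CCAAT (39.4% and 48.9%), TATAAA, TGACGTCA and CTTTCC went the other way. Whether the unlike island-like shares of the sets account for the ETS shares was not tested.

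**Figure D3:**
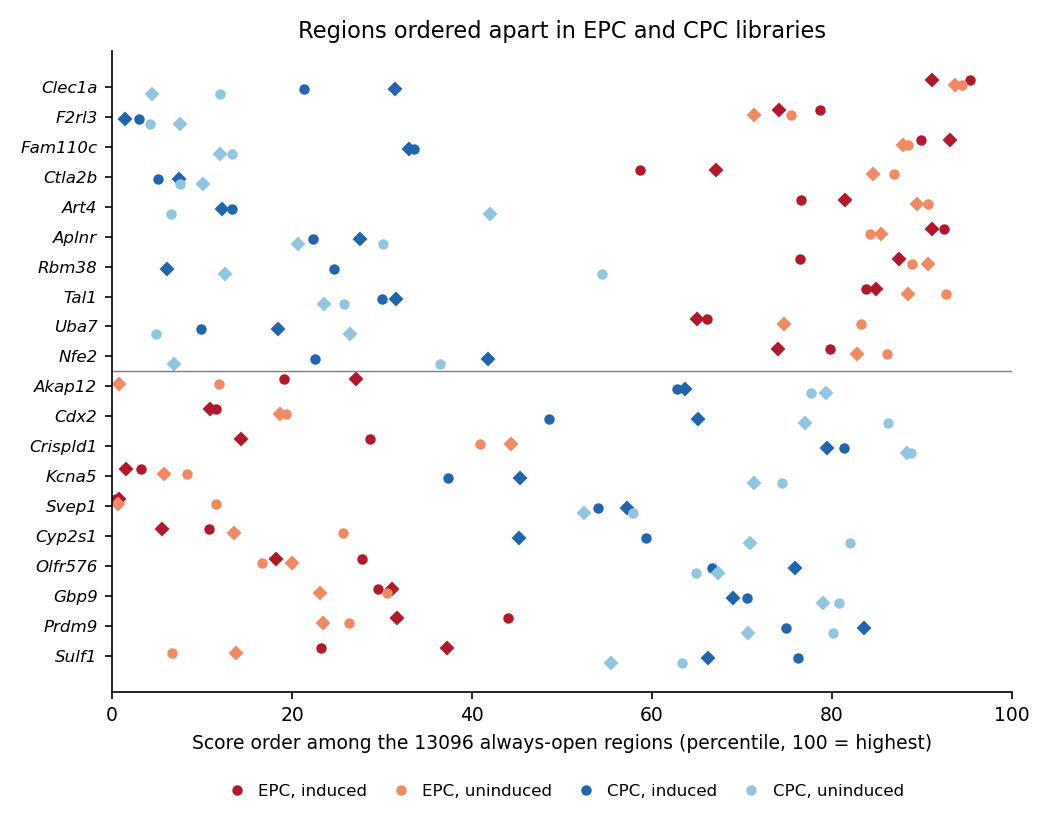
Score order (percentile among the 13096 always-open regions) in each of the 8 ATAC libraries for the 10 regions with the largest EPC over CPC difference (above the line) and the 10 with the largest difference the other way (below it), by gene. Circles are replicate 1 and diamonds replicate 2; red tones are EPC and blue tones CPC, and they do not overlap in any row because the rows were chosen so.

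Places in induced and uninduced libraries lay close together. The mean place in induced minus that in uninduced libraries was within 10 points for 85.8% of the gene-boundary regions, against 69.2% away from boundaries. Induced places were above uninduced places in both cell types, without overlap in either, for 435 regions (5.17%; 6.43% of all always-open regions), and below for 385 (4.58%; 6.01%). As each cell type has 2 induced against 2 uninduced libraries, the smallest exact permutation p within a cell type could not pass 0.05, and none was computed.

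Among the regions higher after induction, Rps23rg1, a retrogene of a ribosomal protein, had places of 70.5 and 66.6 in induced EPC and 85.4 and 78.4 in induced CPC, against 1.8 and 3.9 in uninduced EPC and 37.4 and 25.0 in uninduced CPC. Cstdc1, a cystatin-like gene, had 74.8 and 76.0 in induced EPC and 57.3 and 75.9 in induced CPC, against 30.1 and 33.7 in uninduced EPC and 0.6 and 6.4 in uninduced CPC. Atf3, a stress-response factor gene, had 71.4 to 79.3 in the 4 induced libraries and 29.3 to 52.7 in the 4 uninduced libraries. The other 7 of the 10 were the end of Cds1, Bloc1s1 with Rdh5, Prokr1, Map1b, Itga7, Prom1 and Tagln3, with differences between 29.99 and 35.2 points. An induced ChIP peak in a single list overlapped the Cds1 and Prokr1 regions, and 0 ChIP peaks overlapped the other 8.

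Histone genes were the list with most regions lower after induction. The histone list had a region at 62 of 66 genes, and because these genes lie close together the 62 genes shared 37 regions, 31 of them on chromosome 13 and 5 on chromosome 3. Of the 37 regions, 15 (40.5%) had induced places below uninduced places in both cell types and 0 had them above, against 4.58% below among all gene-boundary regions. In single cell types, 19.0% of all gene-boundary regions were above and 18.7% below in EPC, and 19.0% above and 18.3% below in CPC. Over all always-open regions, the shares were 19.9% above and 20.4% below in EPC, and 19.8% and 20.4% in CPC. Within EPC alone 24 of 37 (64.9%) were below and 1 above. Within CPC alone 25 (67.6%) were below and 1 above. The mean place was lower in induced libraries for 34 of 37 regions, against 48.9% of all gene-boundary regions, and the median difference was −4.99 points. The median place of the 37 regions was 76.3 and 78.2 in induced EPC, 83.3 and 81.3 in uninduced EPC, 66.3 and 72.4 in induced CPC and 79.0 and 76.7 in uninduced CPC. Both induced medians lay below both uninduced medians in each cell type.

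At H1f5, which encodes a linker histone, the places were 33.2 and 20.1 in induced EPC and 19.5 and 17.0 in induced CPC, against 60.9 and 64.9 in uninduced EPC and 57.3 and 50.7 in uninduced CPC. The H1f5 region had a ChIP peak in 1 induced and 1 uninduced list. H4c6, a core histone H4 gene, had 28.9 and 35.9 in induced EPC and 32.3 and 30.6 in induced CPC, against 53.4 and 64.6 in uninduced EPC and 41.9 and 47.4 in uninduced CPC. The region of H1f1, H3c1 and H4c1, in the upper part of the order, had 90.5 and 91.9 in induced EPC and 87.2 and 85.5 in induced CPC, against 94.4 and 94.7 in uninduced EPC and 93.6 and 93.9 in uninduced CPC. H4c6 and the H4c1 region were singled out after their values were seen. Leaving out each library in turn, a check added after the data were seen, gave 15 to 20 regions below in both cell types. Fewer libraries make the rule of no overlap easier to meet, so this count could hardly fall and does not show stability. Copies of the core histone genes are near identical in their coding parts, and how reads with several placements were treated is not given in the sources used here.

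**Figure D4:**
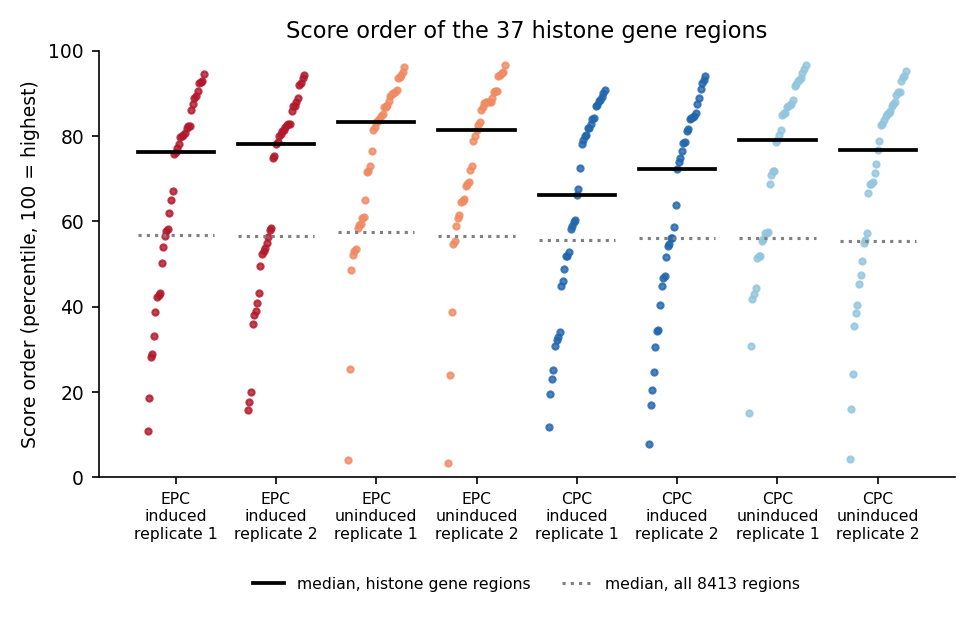
Score order (percentile among the 13096 always-open regions) of the 37 histone gene regions in each ATAC library, 1 point per region sorted by value within a library. Black bars are medians of the 37 regions, lower in both induced than in both uninduced libraries of each cell type, and dotted bars are medians of all 8413 gene-boundary regions.

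The other regions lower after induction included the shared ends of Mov10, an RNA helicase gene, and Rhoc, with 65.1 and 59.5 in induced EPC and 19.9 and 37.6 in induced CPC, against 75.2 and 90.0 in uninduced EPC and 77.7 and 73.5 in uninduced CPC. Ackr1, an atypical chemokine receptor gene with the end of Cadm3 beside it, had 14.1 and 42.4 in induced EPC, against 80.7 and 87.1 in uninduced EPC, while in CPC it had 7.7 and 3.5 in induced and 12.6 and 10.2 in uninduced libraries. The remaining 7 were a region at Diaph1 and the γ-protocadherin cluster, Arl1, Phkg1, 1700001J03Rik, Slc19a3, Spag16 and Gbp4, with differences between −31.6 and −25.9 points. All had 0 ChIP peaks.

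Sox7 ChIP peaks were rare on the gene-boundary regions. In induced replicates 1 to 4, 110, 62, 173 and 64 of the 8413 regions had an anti-Myc peak, or 1.31%, 0.737%, 2.06% and 0.761%. In uninduced replicates 1 to 4, 51, 55, 51 and 46 regions had one, or 0.606%, 0.654%, 0.606% and 0.547%. Uninduced lists 2 and 4 had 585 equal peak starts (75.8% of the shorter one's 772), against at most 1.04% in the other 35 pairs of lists. Their mean was taken as 1 library. The share was 1.22% ± 0.619 (SD, n = 4) in induced and 0.604% ± 0.00343 (SD, n = 3) in uninduced libraries. All 4 induced libraries lay above all uninduced ones, and the difference of 0.611 percentage points had an exact two-sided permutation p of 0.0571, the smallest that 4 against 3 libraries allow (Benjamini-Hochberg adjusted p = 0.0762 over 4 tests), so it did not pass 0.05. The difference moved with the length of the lists, which held 1061 to 2807 peaks in induced and 772 to 1059 in uninduced libraries: with each list reduced to its 772 highest peaks it was −0.00495 points (exact permutation p = 0.971). Without induced replicate 3, the longest list, it was 0.331 points.

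As a share of the peaks in each ChIP list, the gene-boundary regions held 5.76% ± 1.69 of the peaks in induced (SD, n = 4) and 5.51% ± 0.565 in uninduced libraries (SD, n = 3), a difference of 0.249 points with an exact permutation p of 0.743 (adjusted p = 0.743). Induced replicates 1 to 4 had 7.28%, 3.35%, 6.20% and 6.22%, and uninduced replicates 1 to 4 had 5.60%, 5.71%, 4.91% and 6.35%. The ranges overlapped, and the difference was −0.257 points without induced replicate 1 and −0.0519 without uninduced replicate 3.

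The share with a ChIP peak was lower at gene boundaries than in always-open regions away from them in all 7 libraries, although the difference did not pass 0.05 after adjustment. The away regions had a peak in 8.84% ± 1.78 of cases in induced (SD, n = 4) and 6.61% ± 0.191 in uninduced libraries (SD, n = 3). Over the 7 libraries the boundary minus away difference averaged −6.93 points, with an exact two-sided sign-flip permutation p of 0.0156, the smallest that 7 libraries allow (adjusted p = 0.0625). Peaks of the input library overlapped 0.321% of gene-boundary and 5.51% of away regions. Without input peaks and the regions on them the difference was −2.10 points (permutation p = 0.0156), with shares of 1.00% ± 0.630 of boundary and 3.81% ± 1.86 of away regions in induced libraries, and 0.392% ± 0.0150 and 1.60% ± 0.126 in uninduced libraries. The gap was −7.62 points in induced and −6.00 in uninduced libraries, a difference of −1.62 points (exact permutation p = 0.0571, the smallest possible, adjusted p = 0.0762). With lists of equal length that difference was −0.382 points (exact permutation p = 0.114).

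A ChIP peak in any induced list overlapped 220 of the 8413 regions (2.62%), and 8182 (97.3%) had no ChIP peak in any of the 8 lists. Over all ATAC regions, 2434 of 51264 (4.75%) had an induced peak and 48722 had no ChIP peak. Boundary regions in 1 to 7 lists had nearly the same share as the gene-boundary regions, with an induced peak on 137 of 5280 (2.59%). For always-open regions away from boundaries the share was higher, 592 of 4683 (12.6%). Of the 24 gene-boundary regions with a peak in all 8 lists, 13 also overlapped an input peak. Induced sites were defined as merged ChIP regions with a peak in at least 3 of the 4 induced lists and in 0 uninduced lists. There were 235 such sites, and they overlapped 18 gene-boundary regions (0.214%, exact 95% interval 0.127 to 0.338%, counting error only), 40 away regions (0.854%), and 0.414% of all ATAC regions, or 0.443% of the always-open ones. Without induced replicate 2, or without induced replicate 4, the number of gene-boundary regions on induced sites was 38. Fewer induced lists can hardly give more sites under an unchanged requirement of 3 lists. The 38 therefore rests on a looser requirement and is not comparable with the 18. Of the 666 regions in the authors' deposited list named for Sox7 after doxycycline, 45 (6.76%) overlapped a gene-boundary region, and of the 117 in the authors' deposited list named for Sox7 and Gata4, 20 (17.1%) did. For the always-open regions away from boundaries, a smaller set, these counts were 90 (13.5%) and 37 (31.6%). For all ATAC regions they were 476 (71.5%) and 111 (94.9%). How the authors' lists were made is not given in the sources used here.

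The 18 regions on induced sites included genes of signalling, vessels and chromatin. Vwf, which encodes the von Willebrand factor of endothelial cells, had scores of 160.13, 133.59, 367.35 and 104.9 in induced ChIP replicates 1 to 4, at chr6:125552332-125553537. The end of Notch4, a Notch receptor of endothelial cells, had 92.34, 76.04, 260.95 and 71.13, at chr17:34586209-34588127. Vangl2, of planar cell polarity, had peaks in replicates 1 to 3 with 93.28, 51.68 and 66.31, at chr1:172026135-172028058. Other signalling genes were Dvl3 of the Wnt pathway, whose end shares a region with the start of Ap2m1, and Hes7, a Notch target whose end shares one with Aloxe3. Phc1 and Mtf2 encode Polycomb proteins and had peaks in all 4 induced lists. Ang with Rnase4, Tedc2, Aasdh, Clcn4 and Zscan2 also had peaks in all 4, and Traf4, Abt1, Gemin6 with Srsf7, Bcl2l11 with the end of Acoxl, and Relt in 3. The Pik3c2a region overlapped the peaks of 2 lists, and the rest of its site's peaks did not overlap it. With a minimum ChIP score of 100 the number of regions on induced sites was 3, and with lists of equal length it was 6.

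Most regions on induced sites had a higher place in induced than in uninduced ATAC libraries. The mean place was higher in induced libraries for 15 of 18 (83.3%), against 4281 of 8395 other gene-boundary regions (51.0%), with a median difference of 7.37 against 0.0888 points. Places in both cell types were above without overlap for 6 of the 18 (33.3%), at Vwf, Tedc2, Aasdh, Clcn4, Pik3c2a and Bcl2l11 with Acoxl, and below for 0, against 5.17% above among all gene-boundary regions. At Vwf the places were 58.9 and 73.9 in induced EPC and 76.7 and 64.2 in induced CPC, against 45.2 and 55.1 in uninduced EPC and 34.1 and 32.6 in uninduced CPC. Aasdh, an acyl-CoA synthetase family gene, had 77.3 and 88.4 in induced EPC and 76.3 and 69.7 in induced CPC, against 72.7 and 64.9 in uninduced EPC and 41.1 and 53.9 in uninduced CPC. For Clcn4 the step was small, with 97.3 to 99.9 in induced and 96.0 to 98.1 in uninduced libraries, and the ranges over both cell types overlapped. Its score was the tied value of 3100 in both uninduced EPC replicate 1 and induced EPC replicate 2. The places of 98.1 and 98.5 in those libraries therefore differ only through the number of tied regions, and the Clcn4 call in EPC rests on this. These counts rest on few regions and have no test.

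The SOX letters ACAATG occurred in 4 of the 16 promoter windows that overlapped regions on induced sites, at Vangl2, Zscan2, Ap2m1 and Clcn4, against 6.06% of all always-open promoters. The GC box occurred in 15 of the 16, against 70.9% of all always-open promoters, and 9 of 16 were island-like, against 76.8%. The windows cover 300 bases, and the 18 regions had a median width of 2033 bp.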

How the data were processed

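Peak lists of 8 ATAC-seq, 8 anti-Myc ChIP-seq and 1 input library were used, 1 list per library; the RNA samples were not analysed here. Bowtie2, SAMtools, bedtools, Trimmomatic, MACS 1.4 and mm10 (GRCm38) are named in the submitters' processing notes, with no role or order. Each deposited peak carries a score from the authors' caller (in MACS 1.4 output, the p-value as −10 × log10), with many peaks tied at 3100 and no scaling between lists, and scores were therefore used only as ranks within a list. A pair of further lists deposited by the authors hold coordinates alone (other values: start and end of regions). Read depth is not given, so its effect on peak numbers (23068 to 30732 per ATAC list, 772 to 2807 per ChIP list) is unknown.

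Peaks were merged at an overlap of 1 bp, and gene boundaries within 1 kb were taken from RefSeq on mm10; promoter sequences and strand came from RefSeq promoter tables (GRCm38.p6), which matched 17491 of 21883 protein-coding genes. ChIP shares were compared by exact permutation tests over libraries, two-sided with the smaller tail doubled, and by an exact sign-flip test over 7 libraries, with Benjamini-Hochberg adjustment over 4 tests. Uninduced ChIP lists 2 and 4, near duplicates, were counted as 1 library. Intervals are exact (Clopper-Pearson, 95%) and cover counting error only. No test was made on ATAC scores, which chose the regions.

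Named regions were the 10 highest and 10 widest, the 5 just inside and 5 just outside the rule, all on induced ChIP sites, the 10 with the largest EPC minus CPC or induced minus uninduced differences in each direction among those without overlap, members of gene lists, and Kdr, Pdgfra and Sox7. The members and lists were chosen with earlier results of these data known. Alternatives were the boundary distance, the merging overlap, score minimums, lists of equal length, leaving out libraries and input peaks, a replicate block and other rankings. Scripts were tested on simulated data and ran in Python 3.11.15 with numpy 2.4.6, pandas 2.3.3, scipy 1.17.1 and matplotlib 3.10.9.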

Additional observations from a re-analysis of the deposited data

How the results depend on the processing

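The number of regions (6658 to 8861), of genes (7749 to 10026), the median width (1525 to 1638.5 bp) and the number of regions apart between EPC and CPC (870 to 1323, against 900) stayed within 1.5 times the reported values under all alternatives run for them, but ranking the gene-boundary regions alone gave 415 with EPC above and 457 with EPC below, against 503 and 397. Leaving out each ATAC library gave 8451 to 8861 regions, 9607 to 10026 genes, widths of 1525 to 1554 bp and 1119 to 1323 regions apart. With fewer libraries, a peak in every list and a lack of overlap are easier to meet. The counts of regions, genes and regions apart could therefore hardly fall, and these settings do not show their stability. With ChIP lists of equal length, the induced minus uninduced difference in the share of regions with a peak was −0.00495 points and that in the share of peaks on the regions −0.140; without input peaks the second was −0.795. With uninduced lists 2 and 4 counted apart, the first difference was 0.612 (exact permutation p = 0.0286) and the boundary-minus-away difference between treatments −1.67 (exact permutation p = 0.0286). Leaving out each ChIP library gave ranges of 0.331 to 0.771, −0.257 to 1.05 and −1.93 to −1.04 points for these 3 differences, where −0.257 was without induced replicate 1 and −0.0519 without uninduced replicate 3, and −7.06 to −6.52 for the boundary-minus-away difference itself, which kept its sign under all alternatives run. The number on induced sites was 3 at a ChIP score of 100 or more, 6 with lists of equal length and 18 to 38 when leaving out 1 library, with 38 without induced replicate 2 or 4. Leaving out a library made the site rule easier to meet, so these higher counts are not comparable with the 18 under the main rule. Replicate numbers are only names here; with a replicate block over 4 pairs the differences were 0.612 (exact sign-flip permutation p = 0.125), 0.120 (p = 1) and −1.67 (exact p = 0.125), where 0.125 is the smallest p possible. The cause of these changes was not tested beyond the construction of each alternative. Depth is unknown and limits which low peaks were listed.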
